A study of Mus musculus with 12 samples.

Results

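Gene expression after sciatic nerve injury was compared with that after a sham operation in the lumbar dorsal root ganglia of female mice. The comparison used 6 of the study's 12 libraries, those of females, whose count columns carry codes that begin with F. Of these, 3 were labelled SNI, for sciatic nerve injury, and 3 were labelled sham. The mice were C57BL/6 animals at postnatal week 8, and the tissue was ganglia from lumbar levels 3 to 5 in both groups. No mutant allele and no drug is named for either group, so the operation is the only stated difference. The kind of nerve injury, the interval from operation to dissection and the number of animals behind a library are not stated in the labels. The labels do not say that replicates were separate animals, so p-values measure only how far these libraries spread, and that spread may be technical.

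Sensory neurons that send axons into peripheral nerves have their somata in dorsal root ganglia, among satellite glia, Schwann cells, vessels, fibroblasts and resident macrophages. When such an axon is damaged, the cell body is known to switch on transcription factors such as Atf3, Jun and Sox11, to make more of the proteins that build a growth cone, and to alter its neuropeptides, ion channels and transmitter receptors. Macrophages in the ganglion are also known to respond to injury of the nerve. The libraries here read the 3′ ends of polyadenylated RNA from the whole ganglion, so a lower level can come from fewer cells of a type or from less RNA per cell, and these cannot be told apart.

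The 6 libraries held 13099548 to 15520746 counts, and 16055 to 16505 genes had at least 1 count in a library. Levels are CPM, each count divided by the scaled library total, and 3 counts correspond to 0.193 to 0.229 CPM. Replicates of a group correlated at 0.962 to 0.983 (Pearson's r across genes, log2 CPM). Sham replicate 2 stood apart on the first principal component, which held 37.9% of the variance, with a score of 62.3 against 6.94 and 19.6 for the other sham libraries and -32.2 to -26.3 for the SNI libraries. Sham replicate 1 stood apart on the second, which held 22.6%, at -51.6 against -14.2 to 28.0 for the others, and leaving it out gave 885 increases and 774 decreases. In sham replicate 2, 45 of 10825 genes with a mean of at least 5 CPM lay more than 4-fold below the lowest other library, against 0 or 1 in each other library, and of the genes described here Anxa1 was among them. The X inactivation transcript Xist lay at 133.6 to 170.4 CPM in these libraries, and the Y-linked genes summed to 0.526 CPM at most, so no library went against its sex label. Pan-neuronal genes were high in each library, with sums given below.

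After injury 503 of 14365 tested genes were higher and 514 lower than after sham, which is 3.5% and 3.58% of them and 7.08% in all (edgeR's quasi-likelihood test, Benjamini-Hochberg adjusted p below 0.05, two-sided). Counts of called members in the lists below are to be read against these shares. The lists were chosen with earlier results of these data known, so their counts do not test whether a list changed. Increases and decreases were close in number but not in size. Changes reached 2-fold for 218 increases but 54 decreases, and 4-fold for 56 and 3. The median log2 change was 0.89 for the called increases, -0.61 for the called decreases and 0.01 for all tested genes. The genes that rose summed to 44524 CPM in the mean sham library and 75532 CPM in the mean SNI library, and those that fell to 103663 and 71491 CPM. SNI and sham libraries did not overlap for any called gene, against 13.3% of all tested genes without overlap in the upward direction and 13.7% in the downward direction. The same values gave the calls, so this separation adds no support to them. The number of calls depended on single libraries: 183 of the increases and 147 of the decreases were called in each of the 6 fits that left out 1 library.

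**Figure D1:**
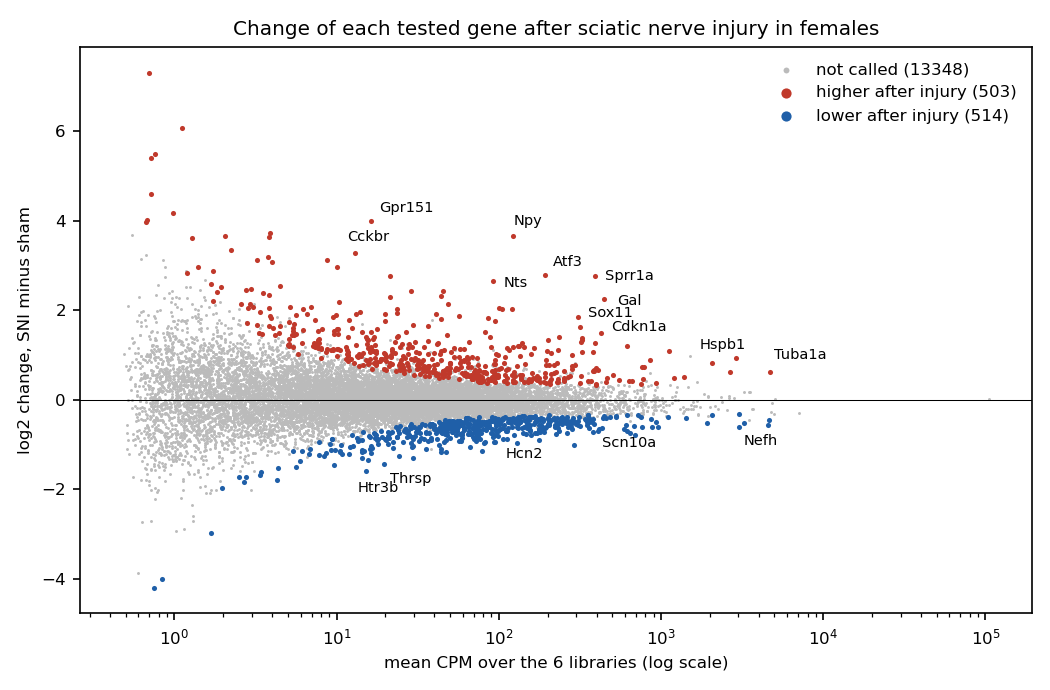
Each point is a tested gene, with its mean level over the 6 libraries in CPM on a log axis and its log2 change, SNI minus sham, on the vertical axis. Red points are the 503 genes that rose and blue points the 514 that fell, and the increases reach further from 0.

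Atf3, a stress-induced transcription factor that marks axotomised sensory neurons, gave the clearest separation of the groups. It was at 43.7, 51.2 and 50.4 CPM in the sham libraries and at 363, 326 and 320.0 CPM in the SNI libraries. The groups lay far apart, and the log2 change was 2.80 ± 0.11 (SE; adjusted p = 3.23e-09; chromosome 1, 191170296 to 191183333, GRCm38). Sprr1a, which encodes a small proline-rich protein tied to neurite outgrowth, was at 113, 110.2 and 74.4 CPM after sham and at 695, 684 and 656 CPM after injury. Its change was 2.78 ± 0.14 (adjusted p = 5.98e-08; chromosome 3, 92483954 to 92485881), and its lowest SNI library was well above its highest sham library. Npy, the gene of neuropeptide Y, which is scarce in uninjured sensory neurons, was at 16.1, 23.2 and 14.3 CPM and at 247, 225 and 211 CPM. That is a log2 change of 3.67 ± 0.17 (adjusted p = 1.92e-08; chromosome 6, 49822710 to 49829507). Gal, the gene of the peptide galanin, was at 152, 166 and 145 CPM in sham libraries and at 737, 771 and 710.2 CPM in SNI libraries, a change of 2.26 ± 0.10 (adjusted p = 6.51e-09; chromosome 19, 3409915 to 3414544). Each of these 4 markers kept its call in all 6 fits without 1 library.

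The markers were among the 15 largest increases of genes with a mean of at least 5 CPM, and 2 receptor genes, a peptide gene and an annexin gene stood with them. Gpr151, an orphan receptor, was at 3.98, 0.531 and 1.21 CPM in sham and at 31.2, 35.8 and 24.9 CPM in SNI libraries. Its change of 4.01 ± 0.58 (adjusted p = 0.0081) was the largest of this set and also had the widest error, with sham libraries that differed several-fold among themselves. Cckbr, a receptor for cholecystokinin and gastrin, was at 3.23, 1.59 and 2.49 CPM after sham and at 20.1, 27.6 and 23.2 CPM after injury, a change of 3.27 ± 0.28 (adjusted p = 4.62e-06). Anxa1, which encodes the calcium- and phospholipid-binding protein annexin A1, changed by 3.12 ± 0.51 (adjusted p = 0.00411). Its sham libraries read 2.93, 0.303 and 2.08 CPM, the low value being that of sham replicate 2, and its SNI libraries 17.3, 15.7 and 13.7 CPM. Nts, the gene of neurotensin, rose from 31.1, 21.0 and 23.9 CPM to 161, 160.2 and 158 CPM, and the SNI libraries hardly differed from each other (2.66 ± 0.14; adjusted p = 4.24e-08).

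The rest of the 15 rose by 2.19 to 2.97 on the log2 scale. They were Wfdc3, a gene with a whey acidic protein domain (2.97 ± 0.32), Car3, a carbonic anhydrase (2.77 ± 0.20), the seizure-related gene Sez6l (2.44 ± 0.19), the β-tubulin gene Tubb6 (2.43 ± 0.16), Ecel1, an endopeptidase-like gene known to respond to nerve damage (2.32 ± 0.16), Tmem88b, a membrane protein gene (2.29 ± 0.20), and Procr, the endothelial protein C receptor gene (2.19 ± 0.27). Each of them, like those above, was called in all 6 fits without 1 library.

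**Figure D2:**
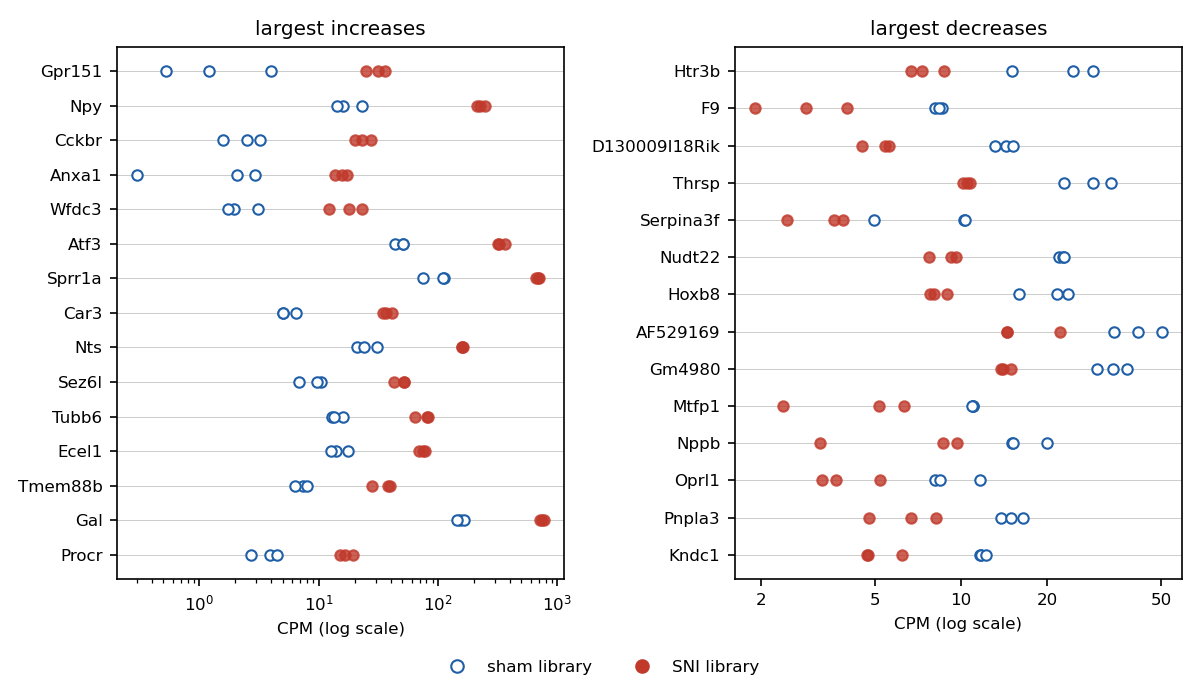
CPM on a log axis in each of the 3 sham libraries (open circles) and 3 SNI libraries (filled circles) for called genes with a mean of at least 5 CPM, from among the 15 that rose most (left) and the 15 that fell most (right). The circles of the groups do not overlap for any gene shown, which the rule that picked these genes required. The 2 panels have different axes.

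Because Atf3, Jun and Fosl2 rose, promoters were searched for 2 motifs modelled on letters that AP-1 and ATF factors are known to bind. TGANTCA leaves its middle base free, so it is wider than those letters, and the match in Tmem88b is TGAATCA. The windows run from 250 bases before to 50 after an annotated start (RefSeq, GRCm38.p6), and both motifs read the same on both strands apart from the free base. TGANTCA was in 7.03% of 498 windows of genes that rose, 6.03% of 514 windows of genes that fell and 5.07% of the windows of tested genes that were not called, against 7.81% of all 32851 windows of the table. TGACGTCA was in 2.41%, 2.53% and 2.93% of the same windows, against 1.79% of all windows. Of the 15 largest increases 12 had a window, and 4 of these held TGANTCA, with 2 matches in Sprr1a. Of 14 genes among the largest decreases 12 had a window, none with TGANTCA and 1, Pnpla3, with TGACGTCA. A match says only that these letters are there. The stretches around the matches in the 4 strongly raised genes are printed 5′ to 3′ on the gene's strand, with the matched letters in capitals, and lie at chr3:92485971-92486047 (Sprr1a, minus strand), chr10:102490589-102490655 (Nts, minus), chr2:155751033-155751099 (Procr, plus) and chr4:155786069-155786124 (Tmem88b, minus).
Sprr1a: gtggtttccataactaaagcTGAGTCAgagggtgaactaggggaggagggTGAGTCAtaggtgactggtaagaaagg
Nts: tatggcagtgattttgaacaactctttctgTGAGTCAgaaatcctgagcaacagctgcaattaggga
Procr: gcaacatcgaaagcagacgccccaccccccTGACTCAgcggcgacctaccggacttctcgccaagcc
Tmem88b: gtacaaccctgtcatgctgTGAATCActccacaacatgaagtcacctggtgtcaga

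Transcription factors known from regenerating neurons held many of the calls. Of 18 tested, 11 rose, against 3.5% of all tested genes, and none fell, the other 7 were not called, and the median log2 change was 0.87 against 0.01 for all genes. Sox11, a factor of developing neurons, was at 136, 149.9 and 113 CPM in sham and at 442, 467 and 528 CPM in SNI libraries, and the groups were well separated (1.85 ± 0.12; adjusted p = 2.45e-07). Jun, the core subunit of AP-1, was at 140.4, 137 and 129 CPM and at 301, 285 and 258 CPM (1.06 ± 0.10; adjusted p = 1.47e-05). Smad1, which carries BMP signals to the nucleus, was at 39.0, 37.7 and 37.8 CPM and at 81.6, 85.9 and 85.2 CPM, so that replicates of either group differed little (1.14 ± 0.12; adjusted p = 2.65e-05). Klf6 rose by 1.19 ± 0.11, the AP-1 member Fosl2 by 1.19 ± 0.17 and the basic leucine zipper factor Nfil3 by 1.58 ± 0.27. Of the 11, these 6 and Atf3 were called in all 6 fits without 1 library. The count was 7 without SNI replicate 1 and 7 without SNI replicate 2. Stat3, the member with the most counts, was at 0.35 ± 0.10 (adjusted p = 0.0402) and lost its call without SNI replicate 1, 2 or 3 or sham replicate 3, where it was at 0.30, 0.34, 0.42 and 0.32. The value of Stat3 is uncertain because it shares exon sequence with Stat5a.

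Genes of axon growth and of the cytoskeleton rose in 15 of 27 cases and fell in none, with a median of 0.63. Tuba1a, an α-tubulin gene, was at 3715, 3658 and 3641 CPM in sham libraries and at 6259.8, 5649 and 5138 CPM in SNI libraries (0.63 ± 0.10; adjusted p = 0.00102). Gap43, the growth cone protein gene, was at 611, 877 and 662 CPM and at 1566, 1438 and 1572 CPM (1.09 ± 0.12; adjusted p = 8.93e-05). Both had groups that did not overlap, although sham replicate 2 was the highest sham library for Gap43. Flrt3, a cell surface protein with leucine-rich repeats, was at 51.3, 47.2 and 43.2 CPM after sham and at 193, 187 and 198 CPM after injury (2.03 ± 0.11; adjusted p = 4.24e-08). The microtubule regulators of the stathmin family rose by 2.03 ± 0.14 (Stmn4) and 0.61 ± 0.09 (Stmn2), the adhesion molecule gene Chl1 by 1.26 ± 0.13 and the actin-linked Marcks by 0.88 ± 0.11. Of the β-tubulins, Tubb6 was given above, Tubb2b rose by 0.94 ± 0.17 and Tubb2a by 0.74 ± 0.10. The last 2 are close paralogs whose reads may have been split by the authors' counting, so their separate values are uncertain. With 1 library left out, 12 of the 15 were called in all 6 fits. Basp1 (0.49), Lgals1 (0.51) and Tmsb10 (0.45) were the others. Without SNI replicate 1 or sham replicate 3 they were not called, at 0.44 and 0.46 for Basp1, 0.50 and 0.50 for Lgals1 and 0.42 and 0.45 for Tmsb10, and Tmsb10 was also lost without SNI replicate 2 or 3 (0.45 and 0.48).

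Growth arrest and stress genes moved in the same direction where they were called. Of 12 targets of p53 and growth arrest genes, 4 rose and none fell (median 0.38), and all 4 kept their calls with any library left out. Cdkn1a, the cell cycle inhibitor p21, was at 220.2, 222 and 222 CPM in sham and at 657, 590.1 and 630.2 CPM in SNI libraries, with almost no spread between sham libraries (1.5 ± 0.09; adjusted p = 1.91e-07). Gadd45a, a DNA damage-inducible gene, was at 20.6, 14.3 and 18.6 CPM and at 88.1, 74.6 and 73.7 CPM (2.14 ± 0.16; adjusted p = 9.93e-07), with exons that overlap E230016M11Rik and a value that is therefore uncertain. Gadd45g rose by 0.79 ± 0.13, and Pmaip1, a pro-apoptotic BH3-only gene, rose by 3.66 ± 0.64 from 0.135 to 0.526 CPM to 3.21 to 4.18 CPM. Other p53 targets were not called, among them Mdm2 at 0.22 ± 0.15 and Bax at -0.74 ± 0.26.

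Of 15 genes of the integrated stress response, 3 rose (median 0.29). Mthfd2, of mitochondrial one-carbon metabolism, rose by 0.65 ± 0.12, and Slc3a2, the heavy chain of amino acid transporters, by 0.58 ± 0.11. Chac1, which degrades glutathione, was at 1.18 ± 0.25 but not called without SNI replicate 2 or 3 or sham replicate 3 (1.03, 1.13 and 1.11). Atf4, the main effector transcription factor of this response, was at 362, 431 and 393 CPM after sham and at 402, 366 and 412 CPM after injury, and the groups overlapped (-0.01 ± 0.10; adjusted p = 0.98). The list's count was 5 without sham replicate 1. Of 5 small heat shock protein genes 1 rose: Hspb1, a chaperone known to protect axotomised neurons, was at 1271, 1783 and 1437 CPM in sham and at 2907, 2375 and 2619 CPM in SNI libraries (0.81 ± 0.12; adjusted p = 0.001).

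Neuropeptide genes went both ways. Of 16 tested, 7 rose and 4 fell, against 3.5% and 3.58% of all tested genes, and the median was 0.11. Besides Npy, Nts and Gal, Crh, the gene of corticotropin-releasing hormone, was at 9.46, 11.5 and 6.93 CPM in sham and at 42.3, 31.9 and 40.04 CPM in SNI libraries (2.03 ± 0.21; adjusted p = 3.65e-05). Adcyap1, which encodes the peptide PACAP, was at 52.7, 43.4 and 31.3 CPM and at 114, 135 and 113 CPM (1.51 ± 0.17; adjusted p = 1e-04). These 5 genes were called with any library left out. The remaining increases were small in level: Grp, of gastrin-releasing peptide, was at 1.97 ± 0.41 but missed the threshold without SNI replicate 1 (1.83). Penk, of the enkephalins, was at 1.27 ± 0.36 and was called only without sham replicate 1. In the other 5 fits Penk lay at 1.27, 1.27 and 1.29 without SNI replicate 1, 2 and 3 and at 1.01 and 1.15 without sham replicate 2 and 3.

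Peptides of nociceptors and itch neurons fell or did not pass. Tac1, the substance P precursor, was at 499, 355 and 396 CPM in sham and at 286, 307 and 248 CPM in SNI libraries (-0.57 ± 0.13; adjusted p = 0.0131). Calcb, of β-CGRP, was at -0.51 ± 0.12, Nmb, of neuromedin B, at -0.43 ± 0.11 with exons that overlap Sec11a and an uncertain value, and Nppb, a natriuretic peptide of itch neurons, at -1.22 ± 0.34. None of the 4 decreases was called in all 6 fits without 1 library: the count was 0 without SNI replicate 1, 1 without SNI replicate 2 and 0 without SNI replicate 3. Tac1 was lost at -0.59 and -0.49 without SNI replicate 1 and 3. Without SNI replicates 1, 2 and 3 in turn, Calcb lay at -0.55, -0.58 and -0.40, Nmb at -0.45, -0.48 and -0.36 and Nppb at -1.38, -0.87 and -1.50. Nppb was also lost without sham replicate 1 (-1.08) or 3 (-1.29). Calca, of α-CGRP and the member with the most counts, was at 1352, 1075 and 1141 CPM after sham and at 1273, 1144 and 975 CPM after injury, with groups that overlapped (-0.07 ± 0.12; adjusted p = 0.783).

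Receptors for peptides and trophic factors held calls in both directions, against 3.5% of all tested genes called higher and 3.58% called lower. Of 12 peptide receptor genes 2 rose and 1 fell (median 0.25). Cckbr was called in all 6 fits, while the related Cckar, with the most counts, was at 0.77 ± 0.21 and not called (adjusted p = 0.0587). Without SNI replicate 3 or sham replicate 1 or 2 Cckar was called higher (0.91, 0.60 and 1.01). Npy2r, a presynaptic receptor for neuropeptide Y, was at 0.98 ± 0.21 and lost its call without SNI replicate 1 or 2 or sham replicate 3 (0.84, 0.97 and 0.93). Ntsr2, a neurotensin receptor below 7 CPM in each library, was at -1.72 ± 0.48 and not called without SNI replicate 1, 2 or 3 or sham replicate 3 (-1.73, -1.68, -1.74 and -1.27).

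Of 13 genes of neurotrophic factors and their receptors, 3 rose and 1 fell (median 0.08). Gfra1, the GDNF co-receptor, was at 208, 159.8 and 187 CPM in sham and at 507, 458 and 430 CPM in SNI libraries (1.33 ± 0.11; adjusted p = 4.7e-06). Gfra3, the artemin co-receptor, was at 25.0, 30.9 and 24.4 CPM and at 50.2, 49.4 and 51.2 CPM (0.91 ± 0.15; adjusted p = 0.00147). Gfra2, the neurturin co-receptor of nonpeptidergic nociceptors, went the other way, from 161, 202 and 164 CPM to 109.8, 104 and 100.2 CPM (-0.75 ± 0.11; adjusted p = 0.000919). All 3 co-receptor calls stood with any library left out. Ret, the shared signalling receptor, was at 0.40 ± 0.11 and lost its call without SNI replicate 1, 2 or 3 or sham replicate 3 (0.35, 0.37, 0.47 and 0.39). The count of decreases was 0 without SNI replicate 1, SNI replicate 2 or sham replicate 3 and 2 without sham replicate 1.

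Potassium channel genes set the excitability of sensory neurons. Of 32 tested, 16 fell, against 3.58% of all tested genes, and none rose, 31 had a change below 0, and the median was -0.58. Kcna2, a delayed rectifier subunit of large sensory neurons, was at 237, 243 and 235 CPM in sham and at 136, 151 and 144 CPM in SNI libraries (-0.73 ± 0.10; adjusted p = 0.000314). Kcnab2, a cytoplasmic β subunit and the member with the most counts, was at 730.0, 896 and 785 CPM and at 484, 473 and 477 CPM (-0.75 ± 0.10; adjusted p = 0.000333). Neither gene had groups that overlapped, and in Kcnab2 sham replicate 2 was the highest library.

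Kcnb2, of the slow delayed rectifiers, was at -0.93 ± 0.14 and Kcna4, an A-type subunit, at -1.14 ± 0.20. The same direction was called for the silent subunit gene Kcns1 (-0.81), the fast delayed rectifier gene Kcnc1 (-0.79) and the A-type channel partners Kcnip1 (-0.84) and Kcnip2 (-0.75). With any library left out 10 of the 16 were called, these 8 among them. The count of the list was 10 without SNI replicate 2, its lowest, and 17 without sham replicate 1, its highest. The only member above 0 was Kcnq3, at 0.49 ± 0.78.

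Voltage-gated sodium channel genes fell in 5 of 13 cases and rose in none, with a median of -0.42. Scn10a, which encodes the nociceptor channel Nav1.8, was at 453, 516 and 459.5 CPM in sham libraries and at 273, 301 and 289.7 CPM in SNI libraries (-0.73 ± 0.10; adjusted p = 0.000359). Scn1a, of Nav1.1, was at 119.8, 158 and 134 CPM and at 72.3, 80.2 and 72.3 CPM (-0.87 ± 0.12; adjusted p = 0.000445). Both were called in all 6 fits without 1 library, and neither had overlapping groups. Scn11a, of Nav1.9, was at -0.57 ± 0.11 but missed the threshold without SNI replicate 1 (-0.53). Scn8a, of Nav1.6, was at -0.47 ± 0.09 but missed the threshold without SNI replicate 2 (-0.46), the setting in which the list's count was 3. Scn9a, of Nav1.7 and the member with the most counts, was at 457, 494 and 419.6 CPM and at 376, 385 and 351 CPM and did not pass (-0.30 ± 0.10; adjusted p = 0.0817), with exons that overlap Gm13629 and an uncertain value.

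Among 15 voltage-gated calcium channel genes, 1 rose and 1 fell (median -0.31), and both were α2δ subunits. Cacna2d1, the binding site of gabapentinoid drugs, was at 568, 676 and 568 CPM in sham and at 1105, 1067 and 1161 CPM in SNI libraries (0.88 ± 0.10; adjusted p = 8.44e-05). Cacna2d2 was at 46.0, 75.3 and 59.8 CPM and at 35.9, 23.1 and 24.9 CPM (-1.11 ± 0.20; adjusted p = 0.00511). Neither gene had groups that overlapped, and each call held with any library left out. The pore-forming subunits in the list were not called. Without sham replicate 1 a further gene fell.

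**Figure D3:**
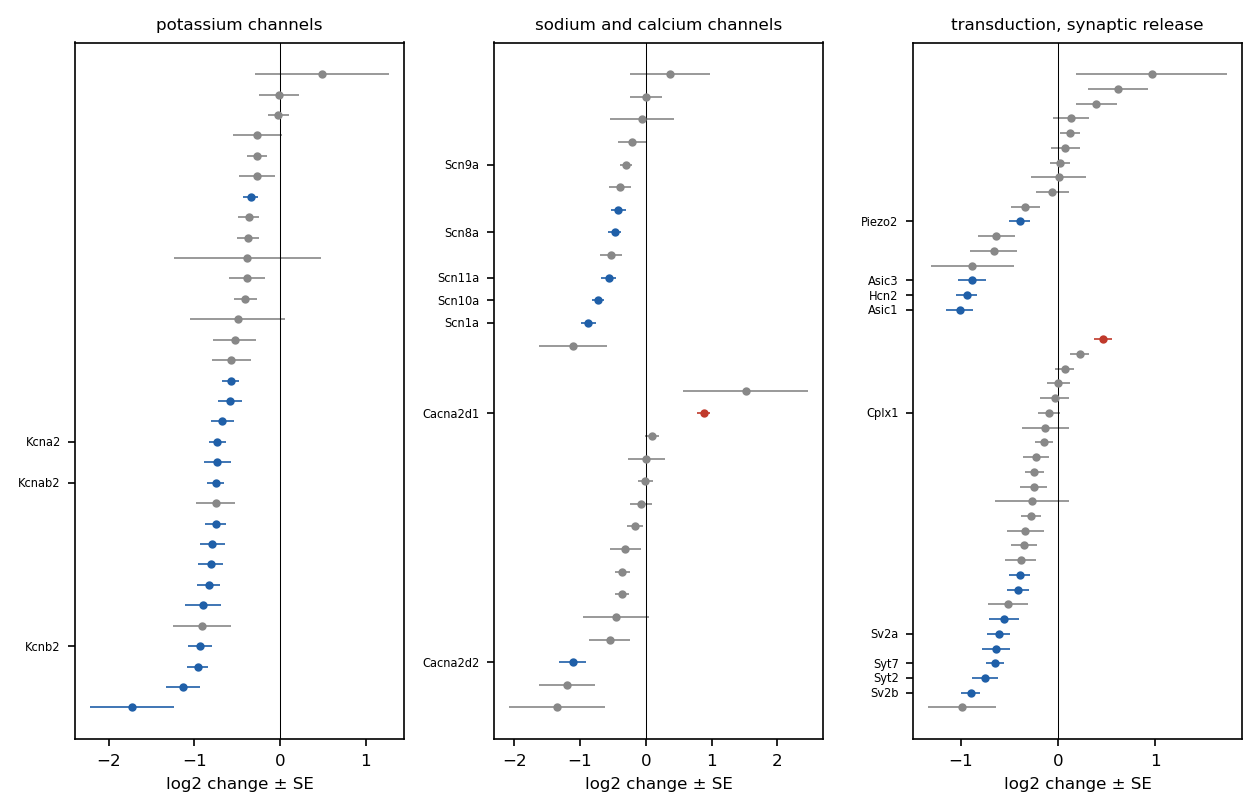
Log2 change, SNI minus sham, with its standard error for each tested gene of potassium channels (left), voltage-gated sodium channels and, below them, calcium channels (middle), and sensory transduction channels and, below them, synaptic vesicle and release genes (right). Red marks a called increase, blue a called decrease and grey a gene that was not called, and only genes chosen by the naming rule are labelled; 31 of 32 potassium channel genes lie below 0.

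Channels of sensory transduction fell in 4 of 17 cases and rose in none, and the list's median was -0.06. Hcn2, a pacemaker channel, was at 115, 127 and 132 CPM in sham and at 63.1, 63.4 and 68.9 CPM in SNI libraries (-0.94 ± 0.11; adjusted p = 9.44e-05). The acid-sensing channel genes Asic1 and Asic3 followed. Asic1 was at 53.1, 53.9 and 63.4 CPM and at 27.2, 26.7 and 30.6 CPM (-1.01 ± 0.14; adjusted p = 0.000467). Asic3 was at 111, 177 and 148 CPM and at 81.7, 79.0 and 75.8 CPM (-0.88 ± 0.14; adjusted p = 0.00182). Piezo2, the touch channel and the member with the most counts, was at -0.39 ± 0.11 and lost its call without SNI replicate 1, 2 or 3 or sham replicate 3 (-0.35, -0.40, -0.43 and -0.46). The heat and capsaicin receptor Trpv1 was at -0.34 ± 0.15, the irritant receptor Trpa1 at -0.66 ± 0.24 and the ATP receptor P2rx3 at 0.12 ± 0.10, and none of these passed. The exons of P2rx3 overlap Ssrp1, so its value is uncertain.

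Subtype markers fell in several cases but mostly with fragile calls. Of 12 genes of itch and nonpeptidergic nociceptors, 3 fell and none rose (median -0.39), and Gfra2, given above, was the one called in all 6 fits. Mrgprd, a receptor of nonpeptidergic nociceptors, was at 129, 75.1 and 109 CPM in sham and at 70.1, 69.1 and 70.5 CPM in SNI libraries (-0.58 ± 0.16; adjusted p = 0.0478). It passed only without sham replicate 2 and lay at -0.58, -0.57 and -0.59 without SNI replicate 1, 2 and 3 and at -0.40 and -0.55 without sham replicate 1 and 3. The itch receptor Mrgpra3 was at -1.03 ± 0.24 and not called without SNI replicate 1 or 3 or sham replicate 3 (-0.89, -1.01 and -0.94). In those 3 settings the count of decreases was 1.

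Of 13 genes of mechanoreceptors and proprioceptors, 4 fell and 1 rose (median -0.50). Nefh, the heavy neurofilament of large myelinated neurons, was at 3137, 4273 and 3569 CPM in sham and at 2367, 2457 and 2421 CPM in SNI libraries (-0.60 ± 0.11; adjusted p = 0.0038). Etv1, a factor of proprioceptors, was at -0.75 ± 0.15. Both were lost without SNI replicate 1, at -0.59 and -0.63. Cntnap2, which anchors potassium channels beside the node, was at -0.50 ± 0.11 and lost without SNI replicate 1 or 3 or sham replicate 3 (-0.50, -0.48 and -0.47). Whrn was at -0.88 ± 0.25 and called only without sham replicate 2, with -0.90, -0.82 and -0.93 without SNI replicate 1, 2 and 3 and -0.78 and -0.87 without sham replicate 1 and 3. The count of decreases was 0 without SNI replicate 1, 2 without SNI replicate 3, 2 without sham replicate 3 and 7 without sham replicate 1. Spp1, osteopontin, which macrophages also make, was at 0.77 ± 0.21 and not called without SNI replicate 1, 2 or 3 or sham replicate 3 (0.73, 0.77, 0.80 and 0.84).

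Transmitter receptors and the release machinery fell in part. Of 22 ionotropic GABA and glutamate receptor genes, 6 fell and 1 rose (median -0.23). Grin1, the obligatory NMDA receptor subunit, was at 119, 144 and 107 CPM in sham and at 58.7, 73.3 and 60.2 CPM in SNI libraries (-0.95 ± 0.13; adjusted p = 0.000542), with exons that overlap Grin1os and an uncertain value. Gria4, of AMPA receptors, was at 40.7, 37.1 and 36.6 CPM and at 19.9, 19.0 and 19.6 CPM (-0.97 ± 0.15; adjusted p = 0.00131). The GABA-A subunit gene Gabrg1 rose from 24.7, 17.3 and 20.8 CPM to 55.7, 55.0 and 46.1 CPM (1.32 ± 0.17; adjusted p = 0.000205). These 3 were called in all 6 fits. Grik1, the kainate receptor subunit with the most counts, was at -0.49 ± 0.11 and lost without SNI replicate 2 or 3 (-0.53 and -0.41). The count of decreases was 3 without SNI replicate 2, and without sham replicate 1 the count of increases was 2.

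Of 15 opioid and other inhibitory G protein-coupled receptor genes, 4 fell and none rose (median -0.49). Gabbr2, a subunit of the GABA-B receptor, was at 101, 129.7 and 106 CPM in sham and at 60.2, 68.3 and 72.7 CPM in SNI libraries (-0.74 ± 0.13; adjusted p = 0.00228), and its call stood in all 6 fits. The others were Oprl1, the nociceptin receptor (-1.21 ± 0.31), the metabotropic glutamate receptor Grm4 (-0.55 ± 0.16) and the serotonin receptor Htr1d (-0.71 ± 0.20), and the list's count was 1 without SNI replicate 1 or 3 or sham replicate 3. In those settings Oprl1 lay at -1.08, -1.15 and -1.29, Grm4 at -0.51, -0.51 and -0.60, and Htr1d at -0.60, -0.70 and -0.82. Oprl1 was also lost without sham replicate 1 (-1.03), Grm4 without SNI replicate 2 (-0.64) or sham replicate 2 (-0.42), and Htr1d without SNI replicate 2 (-0.82) or sham replicate 1 (-0.57). Oprm1, the μ opioid receptor, was at 0.205 to 1.98 CPM over the 6 libraries, too low for a change to be read.

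Genes of synaptic vesicles and release fell in 8 of 26 cases and rose in 1 (median -0.31). Sv2b, a vesicle protein gene, was at 232, 242 and 218 CPM in sham and at 124, 127 and 120.3 CPM in SNI libraries (-0.90 ± 0.10; adjusted p = 5.05e-05), with exons that overlap 1500012K07Rik and an uncertain value. Syt7, a calcium sensor of release, was at 471, 529 and 525 CPM and at 305, 335 and 332 CPM (-0.65 ± 0.10; adjusted p = 0.000785). Syt2, the fast calcium sensor, was at 178, 257 and 195 CPM and at 128, 113 and 134 CPM (-0.75 ± 0.13; adjusted p = 0.00303). Calls of these 3 stood in all 6 fits. Sv2a was at -0.61 ± 0.12 but missed the threshold without SNI replicate 1 (-0.56). The increase was in Syt4, at 0.46 ± 0.09 and lost without SNI replicate 1 or 2 or sham replicate 3 (0.44, 0.46 and 0.42). Decreases numbered 3 without SNI replicate 1, 4 without SNI replicate 2, 4 without SNI replicate 3 and 5 without sham replicate 3. Cplx1, the member with the most counts, was at -0.09 ± 0.12 and not called.

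**Figure D4:**
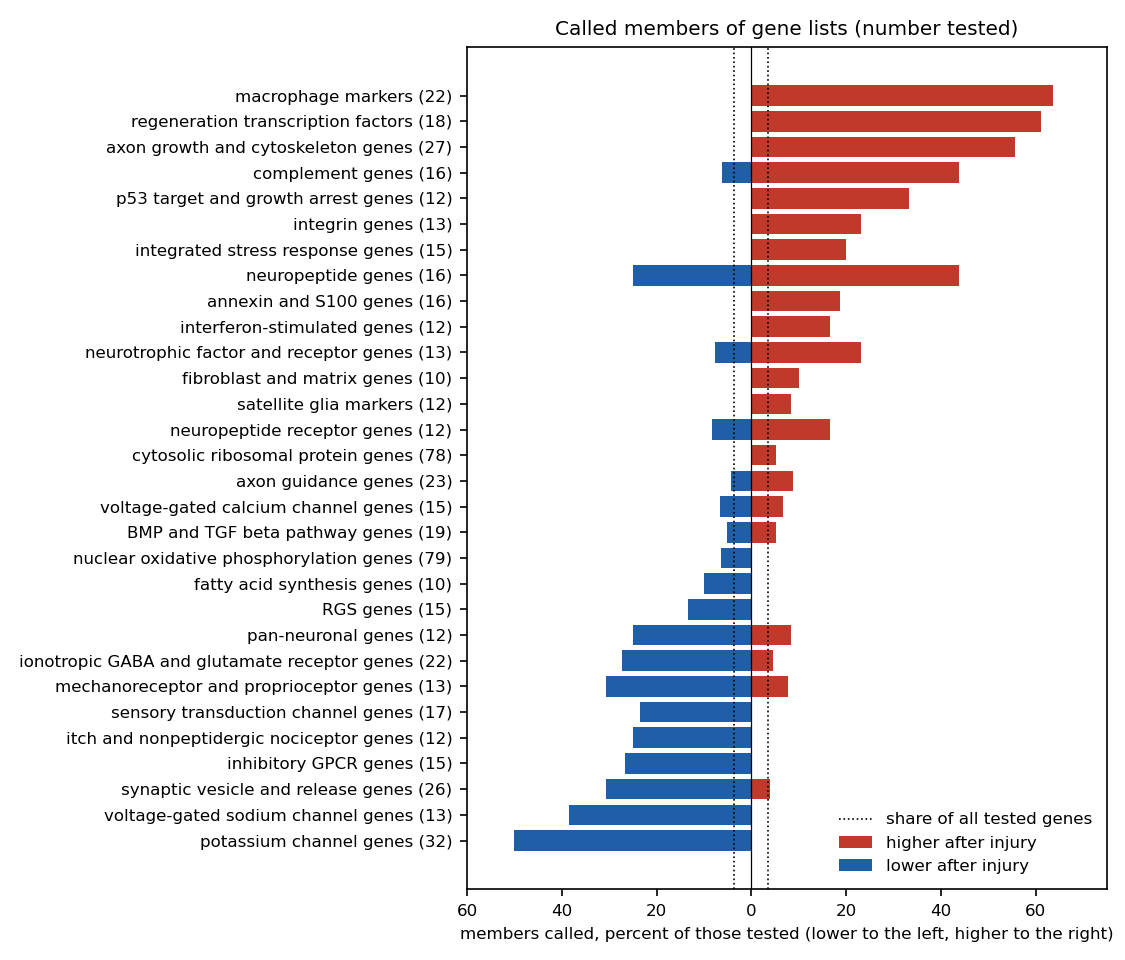
Percent of the tested members of each list that were called, with decreases drawn to the left in blue and increases to the right in red, for lists with at least 10 tested members and at least 1 call. The dotted lines mark the share of all tested genes called in each direction, 3.5% upward and 3.58% downward. Macrophage, regeneration and growth lists reach furthest to the right and potassium and sodium channel lists furthest to the left.

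The summed level of pan-neuronal genes was lower in SNI libraries, and a few abundant members made up most of that sum. The 12 pan-neuronal genes summed to 19630, 26479 and 22021 CPM in sham replicates 1, 2 and 3 and to 18450, 17382 and 17522 CPM in the SNI replicates, without overlap. Nefl, Nefm and Uchl1 had means of 5387, 5458 and 5546 CPM in sham and 3931, 3695 and 4420 CPM in SNI libraries. Of the 12, 3 fell and 1 rose (median -0.22). Elavl3, Celf4 (0.17) and Thy1 (0.13) lay above 0 and the other members below. Nefl and Nefm, the light and medium neurofilament genes, were at -0.45 ± 0.12 and -0.56 ± 0.15, but their exons overlap each other, so these values are uncertain. The splicing factor gene Rbfox3, known as NeuN, was at -0.41 ± 0.12, and the RNA-binding protein gene Elavl3 at 0.41 ± 0.09. Without SNI replicate 1, 2 or 3 or sham replicate 3 none of the 4 was called: in that order Nefl lay at -0.49, -0.45, -0.43 and -0.49, Nefm at -0.61, -0.56, -0.53 and -0.59, Rbfox3 at -0.50, -0.38, -0.34 and -0.43, and Elavl3 at 0.39, 0.44, 0.40 and 0.40. Rbfox3 was also lost without sham replicate 2 (-0.30). Uchl1, with the most counts of the list, was at -0.33 ± 0.10 and not called (adjusted p = 0.0652), with exons that overlap Uchl1os and an uncertain value. Without sham replicate 1 or 2 Uchl1 was called lower (-0.39 and -0.23). The part of this shift in the channel, receptor and synaptic results was not tested.

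Macrophage markers were called in 1 direction. Of 22 tested, 14 rose and none fell, all 22 changes were above 0 and the median was 1.05. The list summed to 201.8, 271.8 and 266.1 CPM in the sham libraries and to 442.4, 485.7 and 559.5 CPM in the SNI libraries. Csf1r, the receptor for colony-stimulating factor 1, was at 31.5, 46.3 and 38.3 CPM and at 71.5, 73.7 and 80.7 CPM (0.96 ± 0.15; adjusted p = 0.000919), with exons that overlap Hmgxb3 and an uncertain value. The mannose receptor gene Mrc1 was at 9.39, 8.80 and 10.1 CPM and at 23, 21.0 and 28.9 CPM (1.37 ± 0.20; adjusted p = 0.00084). Ctss, a lysosomal protease gene, rose by 1.04 ± 0.18 and Lyz2, of lysozyme, by 1.64 ± 0.35. Those 4 genes with C1qa and C1qc were the 6 called with any library left out. The count was 9 without SNI replicate 1, 8 without SNI replicate 2 and 6 without SNI replicate 3. SNI replicate 3 had the highest sum.

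Complement genes rose in 7 of 16 cases and fell in 1 (median 0.79), and 3 of the increases are macrophage markers as well. C1qa, a chain of the initiating component, was at 23.4, 31.3 and 31.2 CPM in sham and at 49.7, 62.3 and 62.6 CPM in SNI libraries (1.02 ± 0.16; adjusted p = 0.00111). C1qc was at 10.7, 10.8 and 17.4 CPM and at 30.8, 34.1 and 40.04 CPM (1.43 ± 0.21; adjusted p = 0.000831). Regulators of complement on the cell surface differed: Cd59a, which blocks the lytic pore, was at 0.52 ± 0.11 and lost without SNI replicate 1 or 2 (0.50 and 0.52), and Cd55, which speeds decay of the convertases, was at -0.64 ± 0.13 and lost without sham replicate 3 (-0.58). The count of increases was 4 without SNI replicate 1, 2 without SNI replicate 2, 3 without SNI replicate 3 and 4 without sham replicate 3.

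Csf1, the ligand of Csf1r, was the 1 gene of 8 tested cytokine and chemokine genes that rose. It was at 21.4, 15.2 and 16.7 CPM in sham and at 55.1, 57.6 and 53.8 CPM in SNI libraries, and the SNI libraries lay close together (1.64 ± 0.16; adjusted p = 1.83e-05). Without sham replicate 1 a further gene of the list rose. Of 7 MHC class II genes 1 rose, H2-Aa at 0.78 ± 0.17, and it was at 0.63 and not called without SNI replicate 2. None of 8 neutrophil markers was called, although all 8 lay above 0 (median 0.52). Their sum was 141.3 to 232.0 CPM in sham and 169.1 to 348.8 CPM in SNI libraries, which overlapped. Lymphocyte markers were nearly absent: the T and NK cell list summed to 1.13 to 2.15 CPM in sham and 3.07 to 4.64 CPM in SNI libraries, and only 1 of its members had enough counts to test.

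**Figure D5:**
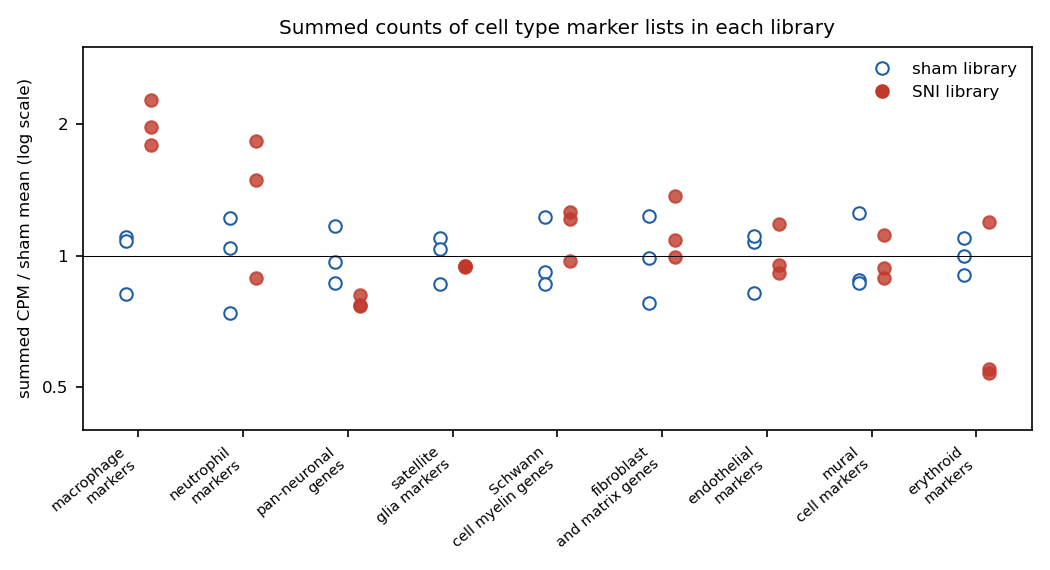
Summed CPM of 9 cell type marker lists in each library, divided by the mean of the 3 sham libraries and drawn on a log axis with base 2; open circles are sham and filled circles SNI libraries. Macrophage sums are higher and pan-neuronal sums lower in all 3 SNI libraries, and the other 7 lists shown overlap between the groups.

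Other cell types showed few calls. Of 12 satellite glia markers 1 rose: Glul, glutamine synthetase, was at 286, 297 and 324 CPM in sham and at 519.7, 486 and 472 CPM in SNI libraries (0.71 ± 0.10; adjusted p = 0.000399). Its exons overlap Teddm2, so the value is uncertain. Apoe, the satellite glia gene with the most counts, was at -0.07 ± 0.10, and the list summed to 6863 to 8735 CPM in sham and 7475 to 7522 CPM in SNI libraries. None of 14 myelin genes and none of 5 repair Schwann cell genes was called, with Ngfr of the latter at -0.27 ± 0.10. The repair Schwann cell list summed to 793.2 to 973.3 CPM in sham and 729.9 to 768.0 CPM in SNI libraries, without overlap. Most of that sum was Ngfr, with means of 844 CPM in sham and 701 CPM in SNI libraries. Ngfr is also in the list of neurotrophic factors and receptors. Shh (0.73), Gfap (0.47) and Runx2 (0.46) lay above 0 and Sox2 (-0.31) below. Without sham replicate 1, 2 satellite glia genes rose and 1 fell, 1 myelin gene rose and 1 repair gene fell, and without sham replicate 2, 1 myelin gene rose. Of 10 fibroblast and matrix genes 1 rose, Lum at 0.61 ± 0.16, which lost its call without SNI replicate 2 or 3 or sham replicate 3 (0.53, 0.56 and 0.67). No endothelial, mural, mast cell, cell division, muscle or erythroid marker was called. The erythroid list summed to 3615, 3543 and 7865 CPM in SNI replicates 1, 2 and 3 against 5943 to 7212 CPM in sham libraries, and without SNI replicate 3 5 of its 7 members fell. Hbb-bs and Hbb-b1 were nearly equal in each library (1050 and 1044 CPM in sham replicate 1), as were Hbb-bt and Hbb-b2 (450 and 444 CPM). The same reads may be counted under both symbols of a pair, so these members are not separate results. Muscle markers summed to 52.9 CPM in SNI replicate 3 and to no more than 13.3 CPM in any other library.

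Th, tyrosine hydroxylase, was at 78.8, 105 and 87.8 CPM in sham and at 56.8, 56.7 and 56.7 CPM in SNI libraries (-0.67 ± 0.13; adjusted p = 0.00417), a decrease that held with any library left out. Th marks low-threshold C-fibre mechanoreceptors in these ganglia and also sympathetic neurons. Hand2, a transcription factor of sympathetic neurons, had no count in any of the 6 libraries.

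Matrix contact and guidance genes added a few strong increases. Of 13 integrin genes 3 rose (median -0.04), and all 3 were called with any library left out. Itga7, a laminin-binding chain known from regenerating axons, was at 210.2, 177 and 176 CPM in sham and at 436, 469.6 and 470.2 CPM in SNI libraries (1.29 ± 0.10; adjusted p = 2.14e-06), with exons that overlap Mettl7b and an uncertain value. Itgb5 rose by 1.25 ± 0.24 and Itgb1, the partner of many α chains, by 0.64 ± 0.10. Of 16 annexin and S100 genes 3 rose: Anxa1, S100a11 (1.07 ± 0.13) and S100a10 (0.74 ± 0.10), while Anxa2, with the most counts, was at 0.12 ± 0.10 and not called. Of 23 axon guidance genes 2 rose and 1 fell. Sema6a, a transmembrane semaphorin, was at 39.9, 34.0 and 43.0 CPM and at 166, 155 and 165 CPM (2.05 ± 0.12; adjusted p = 7.95e-08). Plxna4 (0.43 ± 0.11) was lost without SNI replicate 1, 2 or 3 or sham replicate 3 (0.44, 0.51, 0.35 and 0.38), and Robo2 (-0.49 ± 0.12) without SNI replicate 1 or 2 or sham replicate 3 (-0.47, -0.43 and -0.47).

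Lists of energy metabolism, protein synthesis and lipid synthesis moved little. Of 79 nuclear genes of oxidative phosphorylation 5 fell and none rose (median -0.12), and 74 were not called. Of all tested genes, 3.58% were called lower. The decreases were small, with Ndufs6 at -0.44 ± 0.11 and Ndufa11 at -0.42 ± 0.10, whose exons overlap Mrpl36 and Vmac and whose values are uncertain, Uqcrc1 at -0.42 ± 0.10 and Atp5k at -0.41 ± 0.10. The count was 0 without SNI replicate 1, 2 or 3, 1 without sham replicate 3 and 9 without sham replicate 1, where 5 genes of the list rose as well. Of 78 cytosolic ribosomal protein genes 4 rose (median 0.11), against 3.5% of all tested genes called higher. The count was 0 without SNI replicate 1 and 2 without SNI replicate 2. It was 7 without sham replicate 1, 12 without sham replicate 2 and 1 without sham replicate 3. None of 20 cholesterol synthesis genes was called, with Hmgcs1 at 0.28 ± 0.09 (adjusted p = 0.0851), and 1 rose without sham replicate 1 or 2. None of 10 MHC class I pathway genes and none of 6 genes of tetrahydrobiopterin and nitric oxide synthesis was called, but without sham replicate 1, 2 of the former rose and 2 of the latter fell. Of 10 fatty acid synthesis genes 1 fell, Thrsp, a nuclear regulator of lipogenic genes, which was at 22.98, 33.4 and 28.9 CPM in sham and at 10.7, 10.5 and 10.1 CPM in SNI libraries (-1.44 ± 0.20; adjusted p = 0.000411; chromosome 7, 97412933 to 97417550).

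The 14 genes described here from among the largest decreases with a mean of at least 5 CPM ranged from -1.60 to -1.19. Htr3b, a subunit of the serotonin-gated channel, was at 15.1, 29.0 and 24.7 CPM in sham and at 8.69, 7.31 and 6.67 CPM in SNI libraries (-1.60 ± 0.25; adjusted p = 0.00137; chromosome 9, 48935008 to 48964990). Hoxb8, a homeobox gene that sets positional identity, was at 15.99, 23.6 and 21.6 CPM and at 7.78, 8.06 and 8.95 CPM (-1.30 ± 0.22; adjusted p = 0.0023). Nudt22, a nucleotide sugar hydrolase gene, was at 21.9, 22.7 and 22.9 CPM and at 9.21, 7.72 and 9.61 CPM (-1.35 ± 0.20; adjusted p = 0.000796). In each of the 3 genes the groups did not overlap, which the rule that picked them required. D130009I18Rik (-1.46 ± 0.24), AF529169 (-1.30 ± 0.21), for which no position was found, and Gm4980 (-1.25 ± 0.17) were, with Thrsp and the 3 genes above, the 7 called with any library left out.

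Further decreases of this set depended on single libraries. F9, of coagulation factor IX, was at -1.51 ± 0.34 and lost without SNI replicate 2 or 3 or sham replicate 3 (-1.49, -1.28 and -1.52). Mtfp1, of mitochondrial fission, was at -1.25 ± 0.33 and lost without SNI replicate 1 or 2 or sham replicate 3 (-1.34, -0.93 and -1.26). Pnpla3, a lipase-like gene, was at -1.21 ± 0.25 and lost without SNI replicate 1 or 2 or sham replicate 3 (-1.23, -1.02 and -1.15). Kndc1 was at -1.19 ± 0.26 and lost without SNI replicate 2 or 3 or sham replicate 3 (-1.12, -1.12 and -1.17). Serpina3f was at -1.36 ± 0.36 and called only without sham replicate 3. Its sham libraries read 10.2, 10.3 and 4.98 CPM and its SNI libraries 3.86, 2.46 and 3.59 CPM, and without SNI replicate 1, 2 and 3 and sham replicate 1 and 2 its change was -1.49, -1.18, -1.42, -1.21 and -1.20. Oprl1 and Nppb were described above.

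Smaller sets held 1 or 2 calls each, against 3.5% of all tested genes called higher and 3.58% called lower. Car3, given above, was the 1 of 9 carbonic anhydrase genes that rose. Of 9 immediate early genes 1 rose, Dusp1, a phosphatase of MAP kinases, at 0.99 ± 0.20, which was at 0.92 and not called without SNI replicate 1. Its exons overlap Ergic1, so the value is uncertain. Of 12 interferon-stimulated genes 2 rose, the close paralogs Ifit1 (0.89 ± 0.22) and Ifit3 (0.78 ± 0.22), whose separate values are uncertain. SNI replicate 2 was their highest library, at 44.1 CPM for Ifit1 and 43.0 CPM for Ifit3, and without it they were at 0.60 and 0.51 and not called. Neither was called without SNI replicate 1 (1.0 for Ifit1 and 0.94 for Ifit3) or sham replicate 3 (0.85 and 0.89), and Ifit3 was also lost without SNI replicate 3 (0.85) or sham replicate 1 (0.64). Of 15 RGS genes, which shorten G protein signals, 2 fell: Rgs10 (-0.47 ± 0.11), lost without SNI replicate 2 or 3 (-0.46 and -0.40), and Rgs3 (-0.49 ± 0.13), lost without SNI replicate 1, 2 or 3 or sham replicate 3 (-0.56, -0.46, -0.46 and -0.49). Of 19 genes of BMP and TGF-β signalling, Inhbb, an activin subunit, was at 1.10 ± 0.22 and lost without SNI replicate 1 or 2 (0.96 and 1.05). Nog, the BMP antagonist noggin, was at -1.10 ± 0.31 and lost without SNI replicate 1, 2 or 3 or sham replicate 3 (-1.17, -0.86, -1.31 and -0.99).

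Of the 10 called genes with the highest levels, 7 were given above. Tuba1a, Tubb2b, Stmn2 and Hspb1 rose and Nefl, Nefm and Nefh fell. The other 3 fell as well. Timp2, an inhibitor of matrix metalloproteinases, was at 3538, 4277 and 3713 CPM in sham and at 2490.5, 2639 and 2864 CPM in SNI libraries (-0.53 ± 0.10; adjusted p = 0.00515), and it lost its call without SNI replicate 1 or 2 (-0.48 and -0.52). Sncg, γ-synuclein, was at 2333, 2269 and 2265 CPM and at 1802, 1792 and 1821 CPM (-0.34 ± 0.09; adjusted p = 0.0269), a small change with little spread in either group. Fstl1, a secreted follistatin-like protein of sensory neurons, was at 3229.8, 3446 and 3388 CPM and at 2738, 2634 and 2668 CPM (-0.32 ± 0.09; adjusted p = 0.0383). Without SNI replicate 1, 2 or 3 or sham replicate 3, Sncg lay at -0.34, -0.33, -0.35 and -0.36 and Fstl1 at -0.34, -0.31, -0.32 and -0.32, and neither was called.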

How the data were processed

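RNA from female ganglia was read as 3′ mRNA-seq. The authors deposited 1 table of raw counts per library and used Bowtie2, bedtools and the mm10 build, per the submitters' processing notes; no source names versions, strand use or how reads with several matches were treated, so genes with overlapping exons or close paralogs are called uncertain. Rows with the same symbol were summed, giving 23238 symbols. Genes were filtered with filterByExpr (minimum count 10), scaled by TMM and tested with edgeR 4.0.16 (R 4.3.3) by the quasi-likelihood test, with Benjamini-Hochberg adjustment over all 14365 tested genes and a threshold of 0.05. SE is the log2 change divided by the root of F. In simulated counts for this comparison, 194 of 14315 tested genes were made to change, a smaller share than the 7.08% called here. In them 47.9% of 2-fold and 99.0% of 4-fold changes were recovered, with 6 unchanged genes called. These rates may differ in the real libraries. DESeq2 1.42.0, limma 3.58.1 (voom with quality weights), other scalings, other filters, a replicate block and leaving out each library were alternatives. Positions are from RefSeq and exon overlaps from GENCODE.

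The libraries, members and lists were chosen with earlier results of these data known. Named genes are the 15 largest called increases and decreases with a mean of at least 5 CPM and no overlap, up to 4 called members with the smallest p and the member with the highest level in each list, the 10 called genes with the highest levels, and Atf3, Sprr1a, Npy and Gal. Chosen after their values were seen, outside this rule, were Fosl2, Smad1, Nfil3, Gap43, Stmn4, Chl1, Marcks, Tubb2a, Basp1, Lgals1, Tmsb10, Mdm2, Bax, Adcyap1, Grp, Penk, Tac1, Calcb, Nmb, Kcna4, Kcns1, Kcnc1, Kcnip1, Kcnip2, Kcnq3, Trpv1, Trpa1, P2rx3, Spp1, Oprm1, Syt4, Ctss, Lyz2 and the families of the closing section. Some genes are not reported here.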

Additional observations from a re-analysis of the deposited data

How the results depend on the processing

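Against 503 increases and 514 decreases, voom with quality weights called 949 and 927, and leaving out 1 library in turn called 222 to 885 increases and 189 to 774 decreases. Fewest increases came without SNI replicate 1 (222), fewest decreases without SNI replicate 2 (189), and most of both without sham replicate 1. No gene was called in the opposite direction in any alternative. DESeq2 called 644 and 660. Replicate numbers did not pair the samples (same-numbered correlations 0.006, -0.051 and 0.011), and a replicate block called 385 increases and 339 decreases. Of 157 genes named by the rule and reported, 123 were called and 70 stayed called in every alternative. None of the called ones changed sign. Of the 34 not called, Cckar, Uchl1, Rgs4, Gabbr1, Scn9a, Ngfr, Hmgcs1, Atp5g3 and Hba-a1 were called in at least 1 alternative. Of the same 34, 10 changed sign in some fit, and the cause was not tested. Under voom Col1a2 was at -0.22, Rplp1 at 0.035 and Rsad2 at -0.040. With 1 library left out in turn, the lowest and highest log2 changes were -0.17 and 0.029 for Calca, -0.17 and 0.060 for Cplx1, -0.20 and 0.16 for B2m, -0.033 and 0.28 for Il34, -0.28 and 0.055 for Kit, -0.30 and 0.11 for Egfl7, -0.26 and 0.25 for Col1a2, -0.066 and 0.059 for Atf4, -0.13 and 0.37 for Rsad2, and -0.081 and 0.10 for Rplp1. Sham replicate 1 or 2 was the library left out at 1 end or both for each of these genes but Rsad2.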

Other observations

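Gene families, most of them grouped by symbol and all chosen after their values were seen, held further calls. They are to be read against 3.5% of all tested genes called higher and 3.58% called lower. Because the families were picked from these values, their counts do not test whether a family changed. Calcium sensors with EF hands fell in 6 of 9 tested cases and rose in none (median log2 change -0.72). These were listed by name, and other EF-hand genes, such as the S100 genes, were left out. Tesc, tescalcin, was at 73.1, 104 and 90.0 CPM in sham and at 39.9, 45.9 and 42.7 CPM in SNI libraries (-1.06 ± 0.14; adjusted p = 0.000341), and Ncald, neurocalcin δ, was at 317, 249.9 and 286 CPM and at 161, 169 and 168 CPM (-0.78 ± 0.11; adjusted p = 0.000425). Both were called with any library left out. Caln1, Hpca, Vsnl1 and Hpcal1 lost their calls without at least SNI replicate 1, at -0.89, -0.69, -0.57 and -0.46. Of 10 diacylglycerol kinase genes, which end diacylglycerol signals, 3 fell: Dgkg (-0.83 ± 0.11), Dgkz (-0.79 ± 0.11) and Dgkh (-0.73 ± 0.13), all called with any library left out. Of 14 genes of calcium- and calmodulin-dependent kinases 1 rose and 2 fell, and the increase, Camk1, went from 117, 148 and 125 CPM to 367, 331 and 328 CPM (1.40 ± 0.11; adjusted p = 1.99e-06).

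Serotonin receptor genes fell in 4 of 9 cases (median -0.80). Htr3a, the partner of Htr3b in the serotonin-gated channel, was at 51.4, 46.5 and 44.9 CPM in sham and at 24.6, 23.4 and 27.1 CPM in SNI libraries (-0.93 ± 0.15; adjusted p = 0.00118), and its call held with any library left out. Of 12 cathepsin genes, lysosomal proteases, 4 rose and 1 fell (median 0.22), with Ctsh at 1.17 ± 0.20. Of 28 Hox genes 2 fell, and 24 had a change below 0 (median -0.17).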
